A study of Homo sapiens with 6 samples.

Results

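Genes of the p53 pathway and the death receptors were followed after 24 h with an iron chelator in DMS-53, a line from a small cell lung cancer. The members were the 32 genes MDM2, MDM4, PPM1D, CCNG1, FAS, TNFRSF10A to TNFRSF10D, GDF15, PLK2, PLK3, BTG1, BTG2, CCNG2, SERTAD1, XPC, DDB2, POLH, TIGAR, FDXR, TP53I3, SPATA18, AEN, TP53INP1, PHLDA3, PERP, EI24, CYFIP2, TRIAP1, RPS27L and ZMAT3. Every probe set of the Affymetrix U133 Plus 2.0 array whose annotated symbol is, or includes, a member was taken, which gave 91 of 54675 probe sets. They cover 30 of the 32 genes, and BTG2 and FDXR were not analysed here. All 6 arrays hold RNA of the same line: 2 from cells in Dp44mT (25 µM), 2 from cells in desferrioxamine (DFO, 250 µM) and 2 from control cells in RPMI medium. Dp44mT is a thiosemicarbazone that enters cells readily and chelates iron and copper, and DFO is a siderophore that enters cells poorly, for which the series' design text gives its higher dose. The doses of the chelators therefore differ wherever their values stand side by side. The 2 arrays of a group carry set numbers 1 and 2 in their titles, used here as replicate numbers. Whether they came from separate cultures is not said. Any p-value therefore rests on the spread of these arrays alone, and that spread may be technical. As a cell line, DMS-53 stands for 1 tumour.

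The transcription factor p53 is held low by the ubiquitin ligase MDM2 and, once released by stress signals, switches on genes for growth arrest, DNA repair, metabolic adjustment and cell death. Death receptors such as FAS and the TRAIL receptors carry signals from outside the cell to the caspases, and several of their genes are p53 targets. Some genes of the p53 programme also answer to other stress factors: TNFRSF10B to CHOP (encoded by DDIT3), GDF15 to CHOP, ATF4 and EGR1, PLK2, PLK3 and BTG2 to growth factor and stress signals as early response genes, and CCNG2 and BTG1 to FOXO factors. These 7 are called stress-shared below. A further 23 members are called classical, and MDM4 and SERTAD1 were put in neither class.

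Values are log2(intensity + 16) after quantile normalization, called the normalized log2 level, and a gene is represented by its brightest probe set with a single symbol. Before normalization the arrays differed in brightness, with median deposited intensities of 83.6 and 49.9 in Dp44mT, 85.5 and 63.0 in DFO, and 88.9 and 88.8 in control. Replicate arrays correlated across the 16868 genes tested at 0.892 in Dp44mT, 0.918 in DFO and 0.971 in control, where genes are not independent replicates. All 7 neuroendocrine markers with a probe set (CHGA, CHGB, SYP, INSM1, NCAM1, ENO2 and GRP) and all 4 epithelial ones lay above the intensity limit of 5.55 on all 6 arrays. INSM1, named after its values were seen, fell in both chelators (−3.37 in Dp44mT and −2.21 in DFO), and ENO2, chosen in the same way, rose (2.03 and 1.74). Of the 7 neuroendocrine markers, 6 were below 0 in each chelator, with medians of −0.60 in Dp44mT and −0.43 in DFO. Fibroblast markers differed between the arrays of a group: the summed deposited intensity of 8 markers was 1335 and 1746 in Dp44mT, 1278 and 1858 in DFO, and 1618 and 811 in control, with PDGFRB and FAP below the limit on average and none listed at 0.

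Promoters of some of the members are shown first, as 300-base windows from 250 bases before to 50 bases after the RefSeq gene start (GRCh38.p14), with capitals marking every motif found. GDF15, PLK2 and SERTAD1 are members that rose, and TNFRSF10B is not shown. CCNG2 is shown as a stress-shared gene and DDB2 as a classical p53 target.
GDF15 (chr19:18385908-18386207, plus strand): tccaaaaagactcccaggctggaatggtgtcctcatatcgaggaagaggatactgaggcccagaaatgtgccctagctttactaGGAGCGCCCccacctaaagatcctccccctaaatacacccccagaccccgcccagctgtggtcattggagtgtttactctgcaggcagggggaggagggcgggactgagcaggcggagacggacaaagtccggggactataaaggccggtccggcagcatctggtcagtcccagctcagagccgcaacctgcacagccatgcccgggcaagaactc
PLK2 (chr5:58460037-58460336, minus strand): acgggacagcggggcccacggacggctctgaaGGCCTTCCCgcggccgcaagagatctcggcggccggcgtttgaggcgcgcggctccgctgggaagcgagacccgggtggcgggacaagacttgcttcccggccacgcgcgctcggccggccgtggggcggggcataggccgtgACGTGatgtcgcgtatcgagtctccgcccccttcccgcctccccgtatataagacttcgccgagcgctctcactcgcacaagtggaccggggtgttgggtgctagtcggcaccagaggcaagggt
SERTAD1 (chr19:40425943-40426242, minus strand): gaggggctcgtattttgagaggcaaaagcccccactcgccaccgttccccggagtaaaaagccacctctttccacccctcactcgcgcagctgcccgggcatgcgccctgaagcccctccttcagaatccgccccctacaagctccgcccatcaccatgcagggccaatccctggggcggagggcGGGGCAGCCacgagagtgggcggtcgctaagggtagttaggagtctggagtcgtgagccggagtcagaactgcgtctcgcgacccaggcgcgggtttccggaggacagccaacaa
CCNG2 (chr4:77156957-77157256, plus strand): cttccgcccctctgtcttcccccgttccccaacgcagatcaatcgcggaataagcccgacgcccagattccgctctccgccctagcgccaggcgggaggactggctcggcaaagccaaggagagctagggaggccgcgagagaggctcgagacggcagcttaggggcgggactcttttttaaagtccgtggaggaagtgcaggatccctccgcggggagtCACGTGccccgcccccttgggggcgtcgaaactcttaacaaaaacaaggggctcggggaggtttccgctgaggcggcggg
DDB2 (chr11:47214724-47215023, plus strand): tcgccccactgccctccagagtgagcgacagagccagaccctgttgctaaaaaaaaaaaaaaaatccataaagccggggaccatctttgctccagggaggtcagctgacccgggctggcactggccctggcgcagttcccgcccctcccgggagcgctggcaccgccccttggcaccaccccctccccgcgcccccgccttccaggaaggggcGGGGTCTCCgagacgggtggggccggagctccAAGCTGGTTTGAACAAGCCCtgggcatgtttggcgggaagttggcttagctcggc

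Motifs were searched on both strands and may overlap. The letters were TGANTCA for AP-1, TGACGTCA for the cAMP response element, TGATGNAA for the ATF4-CHOP composite element, ACGTG for the hypoxia response core and GGGNNNNCC for NF-kB, and the p53 response element was searched by name, with 1 mismatch allowed and no spacer between its decamers. In DDB2 the capitals hold an NF-kB match and a p53 response element at position −5 from the gene start, and that element was found in 0.094% of all 35116 promoter windows and in 1 of the 26 members with a window. Elements with more mismatches or with a spacer were not searched for, so windows without a match may still hold one. The windows of GDF15, PLK2 and SERTAD1 hold an NF-kB match each, which 52.8% of all windows have. PLK2 and CCNG2 also hold the hypoxia response core, which is found in 21.4% of all windows. The ATF4-CHOP element (3.62% of all windows) was found in PLK3 among the members, the cAMP response element (1.85%) in PPM1D, and the AP-1 site (7.71%) in MDM2, FAS and PERP. These matches describe the letters in the window and nothing else.

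In Dp44mT, 4 of the 30 members rose and 0 fell, and in DFO the same 4 genes rose and 0 fell: TNFRSF10B, GDF15, PLK2 and SERTAD1. Over all genes tested, 1.91% were called higher in Dp44mT and 1.04% in DFO, against 13.3% of the members in each (1.46% and 0.0593% were called lower, and 3.37% and 1.1% in either direction). All 30 members passed the filter on dim genes, but PLK2 passed it only through the chelator arrays, since its control mean of 5.51 lay under the limit. A call means an adjusted p under 0.05 in limma's moderated test with Benjamini-Hochberg adjustment over all genes. The median difference of the members was 0.08 in Dp44mT and 0.19 in DFO, against 0.03 and −0.03 over all genes tested. The 2 control arrays serve both comparisons, so their fold changes are not independent. On the deposited scale without normalization, where the median of all genes fell by 0.50 in Dp44mT and by 0.32 in DFO, SERTAD1 in Dp44mT was the only one of these calls left. Over all genes, 66 calls in Dp44mT and 26 in DFO were found there, against 569 and 185 in the main run. The member calls in DFO did not hold when any 1 of the 6 arrays was left out. Those in Dp44mT did not hold without any 1 of the Dp44mT or control arrays. Such a fit leaves 1 array in a group, so only effect sizes are read. Calls over all genes tested were lost as well where that group was part of the comparison. Without a Dp44mT array, some DFO calls over all genes remained, and the 4 members were not among them. Without 1 array the DFO differences ran from 1.75 to 1.98 for TNFRSF10B and from 2.35 to 3.03 for GDF15. For PLK2 they ran from 2.03 to 2.32 and for SERTAD1 from 2.49 to 3.10. In Dp44mT the ranges were 2.19 to 2.42, 2.00 to 2.68, 1.87 to 2.16 and 3.03 to 3.68, in the same order.

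**Figure D1:**
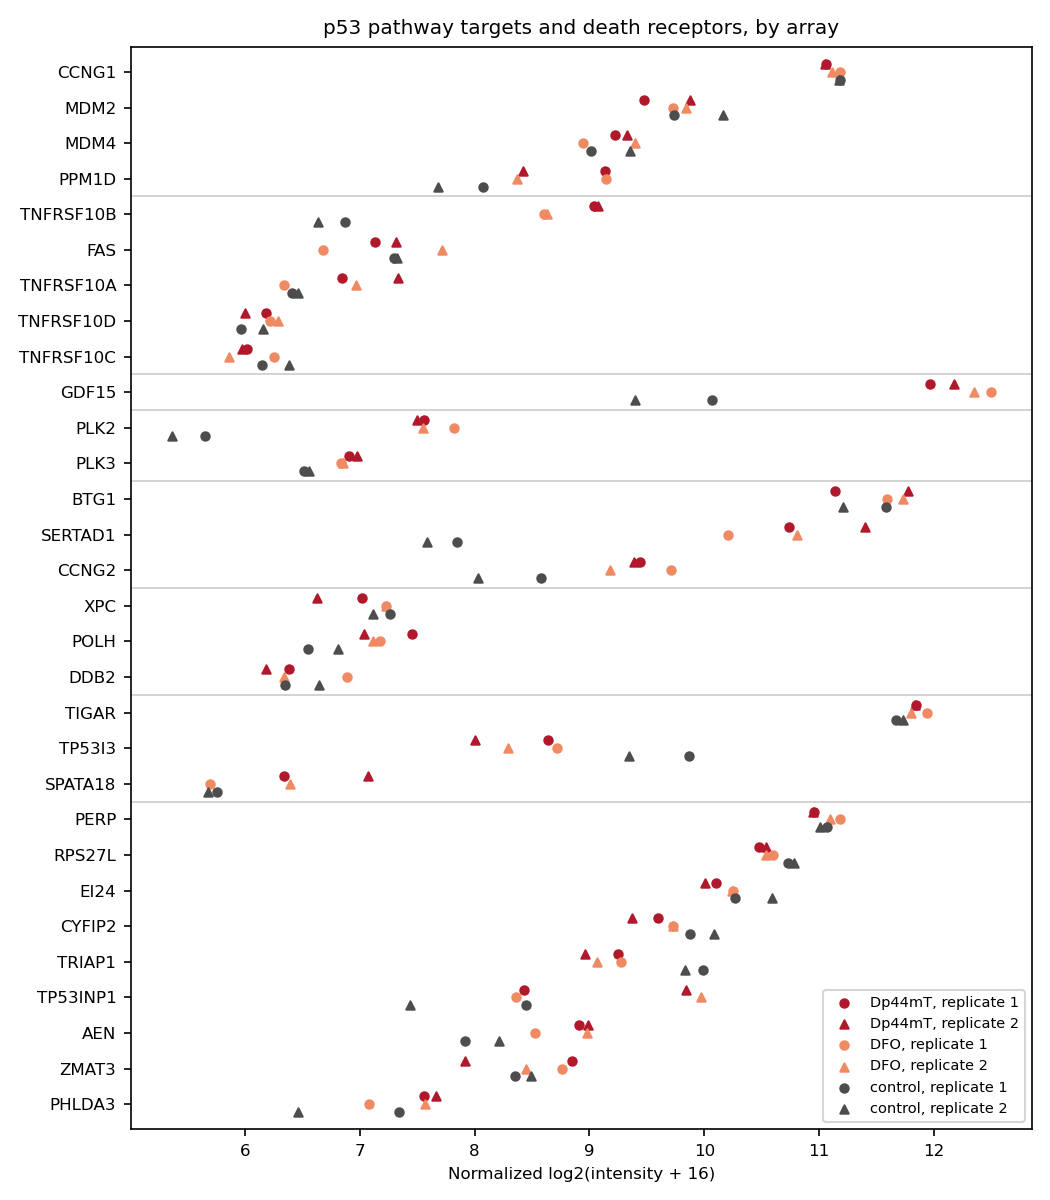
Normalized log2 level (x axis) of the 30 members in each of the 6 arrays, in blocks by role, with circles for replicate 1 and triangles for replicate 2. The chelator arrays of TNFRSF10B, GDF15, PLK2 and SERTAD1 lie to the right of both control arrays without overlap, while those of MDM2, MDM4, FAS and ZMAT3 overlap with control.

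Among the death receptors, TNFRSF10B was the member that rose. TNFRSF10B encodes DR5, a TRAIL receptor with a death domain. Its normalized log2 level was 9.04 and 9.08 in Dp44mT, 8.61 and 8.63 in DFO, and 6.87 and 6.64 in control. Every chelator array stood above both control arrays, and both Dp44mT arrays stood above both DFO arrays. The change was 4.94-fold in Dp44mT (log2 2.30 ± 0.17 SE with n = 2 in each group, and an adjusted p = 0.0103 in limma) and 3.64-fold in DFO (log2 1.86, SE 0.17, adjusted p = 0.0211). Within set 1 the difference from control was 2.17 in Dp44mT and 1.74 in DFO, and within set 2 it was 2.44 and 1.99. Here and below, differences from control within a set match arrays by number only. Deviations from the group means of same-numbered arrays correlated at −0.35 between Dp44mT and control and −0.25 between DFO and control, so the numbers did not pair them. The call for DFO ended when array medians were subtracted in place of quantile normalization (adjusted p = 0.0680).

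All 3 TNFRSF10B probe sets above the limit gave like values. Their differences ran from 2.30 to 2.39 in Dp44mT and from 1.77 to 1.86 in DFO, and each passed the test when all 41006 probe sets above the limit were fitted (adjusted p between 0.0126 and 0.0183 in Dp44mT and between 0.0317 and 0.0441 in DFO). Among those probe sets 1.07% were called higher in Dp44mT and 0.568% in DFO, and 0.563% and 0.0195% lower. Another, dim probe set was below the limit and stood at −0.34 and −0.29.

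The other TRAIL receptor genes lie next to TNFRSF10B in the RefSeq annotation, in the order TNFRSF10B, TNFRSF10C, TNFRSF10D, TNFRSF10A with no other protein-coding gene between them, and none of the other 3 passed the test. TNFRSF10A encodes DR4, the second TRAIL receptor with a death domain, and had levels of 6.85 and 7.34 in Dp44mT, 6.34 and 6.96 in DFO, and 6.41 and 6.47 in control. Both Dp44mT arrays were above control, and the DFO arrays lay on either side of it. The difference was 0.66 in Dp44mT (95% interval −0.08 to 1.39) and 0.22 in DFO (−0.52 to 0.95). The other tested TNFRSF10A probe sets stood at 0.07 and 0.24 in Dp44mT and at 0.08 and −0.05 in DFO. TNFRSF10C encodes a decoy receptor without an intracellular death domain, and its levels were 6.02 and 5.98 in Dp44mT, 6.25 and 5.86 in DFO, and 6.15 and 6.38 in control. Its difference was −0.27 in Dp44mT (−0.80 to 0.27) and −0.21 in DFO (−0.74 to 0.33). For TNFRSF10D, a decoy with a truncated death domain, the levels were 6.18 and 6.003 in Dp44mT, 6.22 and 6.28 in DFO, and 5.97 and 6.16 in control, with differences of 0.03 (−0.42 to 0.48) and 0.19 (−0.26 to 0.64). The upper bounds for both decoys, on their brightest probe sets, lay below the lower bounds for TNFRSF10B. A dim TNFRSF10C probe set below the limit stood at 0.94 in Dp44mT and 0.52 in DFO, with both Dp44mT arrays above control. The other dim ones of that gene stood at 0.04 and −0.47 in Dp44mT and at −0.19 and −0.29 in DFO.

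FAS, the receptor for FAS ligand, had levels of 7.13 and 7.32 in Dp44mT, 6.68 and 7.71 in DFO, and 7.30 and 7.33 in control. The DFO arrays lay on either side of both control arrays, at −0.62 in set 1 and 0.39 in set 2. Its difference was −0.09 in Dp44mT (−1.01 to 0.82) and −0.12 in DFO (−1.03 to 0.80). Its other tested probe sets did not pass and differed in sign, at −0.63 and 0.49 in Dp44mT and at −0.35 and 0.17 in DFO, and for both the Dp44mT arrays did not overlap with control.

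GDF15, a secreted stress cytokine of the TGF-beta superfamily, rose in both chelators. Its level was 11.97 and 12.17 in Dp44mT, 12.50 and 12.35 in DFO, and 10.07 and 9.39 in control. The chelator arrays lay well above control, and both Dp44mT arrays lay below both DFO arrays. The change was 5.06-fold in Dp44mT (log2 2.34, SE 0.27, adjusted p = 0.0247) and 6.45-fold in DFO (log2 2.69, SE 0.27, adjusted p = 0.0278). It rests on the brightest probe set, with deposited intensities of 4689.8 and 2918.4 in Dp44mT, 7208.1 and 3918.4 in DFO, and 1229.6 and 909.5 in control. Another probe set, with deposited intensities between 33.0 and 62.0, gave 0.29 in Dp44mT and 0.31 in DFO and did not pass (adjusted p = 0.383 and 0.624), and a dimmer one stood at 0.76 and 0.82. With the probe sets of a gene averaged, GDF15 no longer passed (log2 1.13, adjusted p = 0.0554 in Dp44mT, and 1.27, adjusted p = 0.0748 in DFO).

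PLK2 and PLK3 encode stress-responsive kinases of the polo-like family. PLK2 had levels of 7.56 and 7.497 in Dp44mT, 7.82 and 7.55 in DFO, and 5.65 and 5.36 in control, a change of 4.05-fold in Dp44mT (log2 2.02, SE 0.20, adjusted p = 0.0180) and 4.51-fold in DFO (log2 2.17, SE 0.20, adjusted p = 0.0205). The deposited control intensities of 38.9 and 29.9 are near the pseudocount of 16, which makes the log2 difference of a dim gene smaller. For PLK3 the levels were 6.91 and 6.98 in Dp44mT, 6.84 and 6.85 in DFO, and 6.52 and 6.56 in control. The 4 chelator arrays were above both control arrays by a small margin, with a difference of 0.40 in Dp44mT (95% interval 0.00 to 0.81, adjusted p = 0.206) and 0.31 in DFO (−0.10 to 0.71, adjusted p = 0.500). PLK3 did not pass in either comparison, and on the deposited scale the Dp44mT value turned to −0.02.

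SERTAD1 showed the largest change of the 30 members in Dp44mT, and in DFO its change was close to that of GDF15. The gene encodes a nuclear protein, also known as TRIP-Br1, that binds the cell cycle kinase CDK4. Its levels were 10.74 and 11.40 in Dp44mT, 10.21 and 10.81 in DFO, and 7.84 and 7.58 in control. The lowest chelator array was 2.36 above the highest control array on the log2 scale. SERTAD1 rose 10.2-fold in Dp44mT (log2 3.35, SE 0.33, adjusted p = 0.0180) and 6.94-fold in DFO (log2 2.80, SE 0.33, adjusted p = 0.0354), and has a single probe set. Within set 1 its difference was 2.89 in Dp44mT and 2.36 in DFO, and within set 2 it was 3.81 and 3.23.

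The other antiproliferative genes did not pass. CCNG2, an unconventional cyclin linked to growth arrest, had levels of 9.44 and 9.39 in Dp44mT, 9.71 and 9.18 in DFO, and 8.57 and 8.03 in control. All chelator arrays were above both control arrays, and the difference was 1.11 in Dp44mT (SE 0.28, adjusted p = 0.101) and 1.14 in DFO (SE 0.28, adjusted p = 0.192). Of its 5 probe sets, the brightest 3 stood between 0.95 and 1.11 in Dp44mT and between 0.96 and 1.14 in DFO, and the dimmest stood at 0.05 and −0.00. On the remaining one the chelator arrays were below control in set 1 and above it in set 2, with levels of 5.86 and 8.01 in Dp44mT, 5.99 and 7.56 in DFO, and 6.26 and 5.93 in control. BTG1, an antiproliferative factor, had levels of 11.14 and 11.77 in Dp44mT, 11.59 and 11.73 in DFO, and 11.59 and 11.20 in control. Its Dp44mT arrays lay on either side of control, at −0.45 in set 1 and 0.57 in set 2, for a difference of 0.06 (95% interval −0.66 to 0.77), and the DFO difference was 0.26 (−0.45 to 0.98).

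The feedback regulators of p53 did not pass in limma in either chelator (0 of 4, and 0 at an unadjusted p under 0.05, where all genes tested gave 24.1% in Dp44mT and 13.3% in DFO). MDM2 had levels of 9.48 and 9.87 in Dp44mT, 9.73 and 9.84 in DFO, and 9.74 and 10.16 in control. Chelator and control arrays overlapped, with a difference of −0.28 in Dp44mT (95% interval −0.88 to 0.33, adjusted p = 0.467) and −0.17 in DFO (−0.78 to 0.44, adjusted p = 0.788). On this brightest probe set a rise of 2-fold, 1 on the log2 scale, lies outside both intervals. The 8 MDM2 probe sets above the limit did not pass, and they ran from −0.90 to 0.56 in Dp44mT and from −0.56 to 0.66 in DFO. On the probe set at 0.66 in DFO (SE 0.21), which stood at 0.52 in Dp44mT, all chelator arrays were above control. On that at −0.56 in DFO (SE 0.44) and −0.90 in Dp44mT, the Dp44mT arrays were below control and the DFO arrays on either side of it.

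MDM4, the partner and relative of MDM2, had levels of 9.22 and 9.33 in Dp44mT, 8.95 and 9.39 in DFO, and 9.02 and 9.35 in control, with differences of 0.09 (−0.51 to 0.69) and −0.01 (−0.61 to 0.58). PPM1D encodes the phosphatase WIP1, which turns off p53 and its upstream kinases, and had levels of 9.14 and 8.42 in Dp44mT, 9.14 and 8.37 in DFO, and 8.07 and 7.68 in control. Its chelator arrays were all above control, at 0.90 in Dp44mT (−0.07 to 1.88, adjusted p = 0.230) and 0.88 in DFO (−0.09 to 1.85, adjusted p = 0.421). The other tested PPM1D probe set, near the limit, stood at 0.18 in Dp44mT and 0.43 in DFO. CCNG1 encodes cyclin G1, which promotes MDM2 activity. It was close to level over the 6 arrays, with 11.06 and 11.05 in Dp44mT, 11.18 and 11.11 in DFO, and 11.18 and 11.17 in control, and its difference was −0.12 in Dp44mT (−0.53 to 0.28) and −0.03 in DFO (−0.44 to 0.37).

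**Figure D2:**
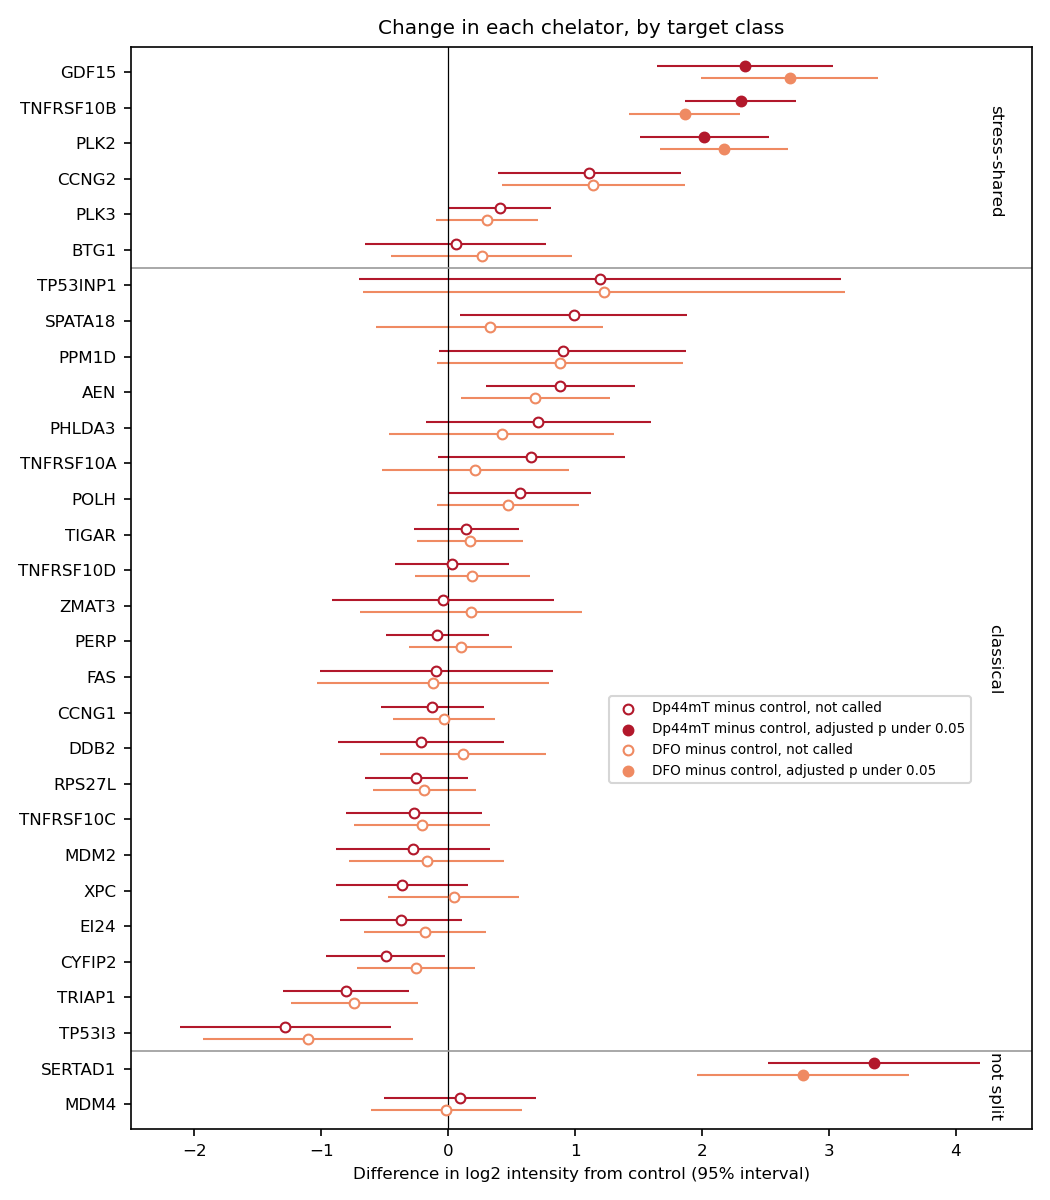
Difference in normalized log2 level from control (x axis, with 95% intervals of the moderated test) for each member, with Dp44mT drawn above DFO and filled points marking an adjusted p under 0.05. Filled points are seen for GDF15, TNFRSF10B and PLK2 in the stress-shared block and for SERTAD1, and none of the 22 classical genes has one.

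Stress-shared and classical targets were set side by side as counts and medians. Of the 6 stress-shared genes measured, 3 rose in Dp44mT and 3 in DFO, and 0 fell. Their median difference was 1.56 in Dp44mT and 1.502 in DFO. None of the 22 classical genes measured was called in limma in either chelator (0 and 0), and their medians were −0.09 in Dp44mT and 0.11 in DFO. At an unadjusted p under 0.05 there were 6 of the 22 in Dp44mT and 3 in DFO, shares near those of all genes tested (24.1% and 13.3%). Over all genes tested the medians were 0.03 and −0.03. All 6 stress-shared values were above 0 in both chelators, while 9 of 22 classical values were above 0 in Dp44mT and 13 of 22 in DFO. The gap between the medians of the classes was 1.65 in Dp44mT and 1.39 in DFO, and 1.11 and 0.99 with the probe sets of a gene averaged. Genes were put in these classes with earlier results of the same arrays known, so the gap is a description.

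Classical targets differed among themselves in sign, and AEN, TRIAP1, TP53INP1 and PHLDA3 are given by array because of their values. The genes of the quinone oxidoreductase TP53I3 and the survival factor TRIAP1 had the lowest values of the members. TP53I3 had levels of 8.64 and 8.01 in Dp44mT, 8.71 and 8.29 in DFO, and 9.87 and 9.34 in control. Every chelator array was below both control arrays, at −1.28 in Dp44mT (95% interval −2.11 to −0.45, adjusted p = 0.1003) and −1.10 in DFO (−1.93 to −0.28, adjusted p = 0.258). TRIAP1 encodes a small mitochondrial protein that holds back apoptosis, and it stood at 9.25 and 8.97 in Dp44mT, 9.28 and 9.07 in DFO, and 9.99 and 9.83 in control. Here too the groups did not overlap, with a difference of −0.80 in Dp44mT (−1.30 to −0.31, adjusted p = 0.0937) and −0.74 in DFO (−1.24 to −0.24, adjusted p = 0.219).

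Some classical genes stood higher without passing. AEN, a nuclease that degrades DNA in apoptosis, had levels of 8.91 and 8.99 in Dp44mT, 8.52 and 8.98 in DFO, and 7.92 and 8.21 in control, all chelator arrays above control, for a difference of 0.88 in Dp44mT (0.30 to 1.47, adjusted p = 0.105) and 0.69 in DFO (0.10 to 1.27, adjusted p = 0.308). SPATA18, also known as Mieap and linked to mitochondrial quality control, was near the limit in control, with 5.76 and 5.68. It stood at 6.34 and 7.08 in Dp44mT and at 5.70 and 6.39 in DFO, for a difference of 0.99 (0.09 to 1.88, adjusted p = 0.176) and 0.33 (−0.57 to 1.22, adjusted p = 0.731).

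In DNA repair, 0 of 3 genes passed in limma, with 1 in Dp44mT (24.1% of all genes) and 0 in DFO (13.3% of all genes) at an unadjusted p under 0.05. POLH, the translesion polymerase eta, stood at 0.57 in Dp44mT (0.01 to 1.13) and 0.47 in DFO (−0.09 to 1.03), with all chelator arrays above control. Its 5 tested probe sets ran from −0.39 to 0.57 in Dp44mT and from −0.12 to 0.47 in DFO. The damage sensors of nucleotide excision repair, XPC and DDB2, stood at −0.36 and −0.21 in Dp44mT and at 0.04 and 0.12 in DFO. The level of DDB2, whose promoter is shown above with its p53 response element, was 6.39 and 6.18 in Dp44mT, 6.89 and 6.34 in DFO, and 6.35 and 6.64 in control, with overlap between the groups.

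The metabolic enzyme TIGAR, a fructose bisphosphatase that slows glycolysis, was at 0.14 in Dp44mT (−0.27 to 0.56) and 0.17 in DFO (−0.24 to 0.59). Among the remaining effectors of apoptosis and survival, PERP (−0.09 in Dp44mT and 0.10 in DFO), EI24 (−0.37 and −0.18), the actin regulator CYFIP2 (−0.49 and −0.25), RPS27L (−0.25 and −0.19) and the RNA-binding protein ZMAT3 (−0.04 and 0.18) did not pass. The other 4 tested probe sets of ZMAT3 stood lower, from −1.08 to −0.10 in Dp44mT and from −0.70 to −0.12 in DFO. The arrays of both chelators were below control for EI24, CYFIP2 and RPS27L. For the Dp44mT arrays, 13 of the 30 members did not overlap with control on the higher side (30.3% of all genes) and 9 on the lower side (33.1%). In DFO the counts were 13 (17.1% of all genes) and 5 (30% of all genes).

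TP53INP1, a stress-induced protein of apoptosis and autophagy, had probe sets that pointed in opposite directions. The brightest had levels of 8.43 and 9.84 in Dp44mT, 8.36 and 9.97 in DFO, and 8.45 and 7.43 in control. Its difference from control was −0.02 in set 1 and 2.41 in set 2 for Dp44mT, and −0.08 and 2.53 for DFO, and with an SE of 0.75 it did not pass (adjusted p = 0.362 and 0.575). Like the fibroblast markers, it was highest on the set 2 chelator arrays and lowest on control replicate 2. The median level of those markers was 7.34 and 8.81 in Dp44mT, 7.32 and 8.79 in DFO, and 7.72 and 5.75 in control. The other probe set above the limit had levels of 6.15 and 5.34 in Dp44mT, 6.95 and 6.003 in DFO, and 7.503 and 7.18 in control. Here all chelator arrays lay below control, at −1.60 in Dp44mT (SE 0.43, adjusted p = 0.126) and −0.87 in DFO (SE 0.43, adjusted p = 0.551). The part of the set in either pattern was not tested.

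**Figure D3:**
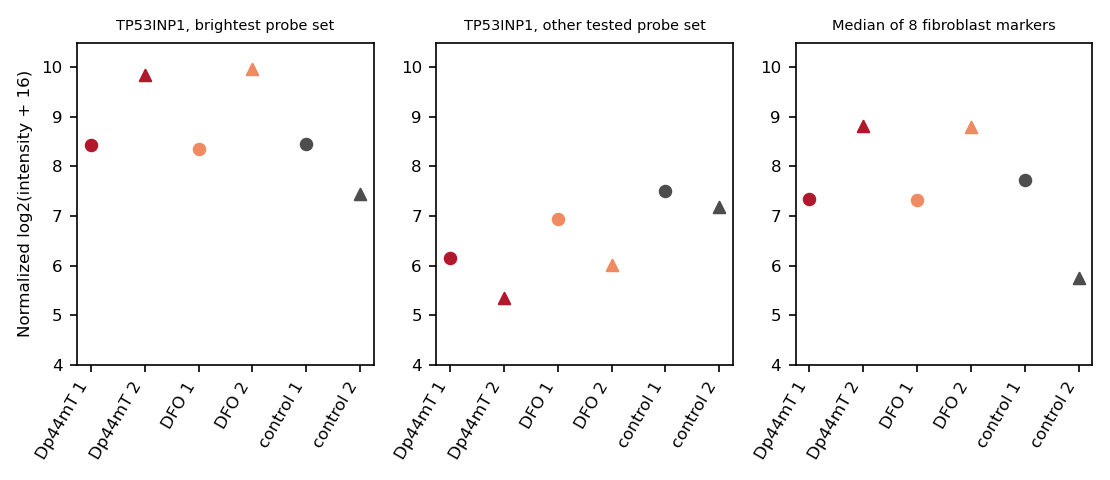
Normalized log2 level (y axis) by array for the brightest and the other tested probe set of TP53INP1 and for the median of 8 fibroblast markers, with circles for replicate 1 and triangles for replicate 2. The first and last panels are highest on the set 2 chelator arrays and lowest on control replicate 2, and the middle panel is highest on the control arrays.

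PHLDA3, a repressor of AKT signalling, also differed between the sets, at 0.22 in set 1 and 1.20 in set 2 for Dp44mT and at −0.26 and 1.11 for DFO, with levels of 7.34 and 6.46 in control. The sign of the difference was the same in both sets for 24 of 30 members in Dp44mT (72.5% of all genes tested) and for 20 of 30 in DFO (60.3% of all genes tested).

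**Figure D4:**
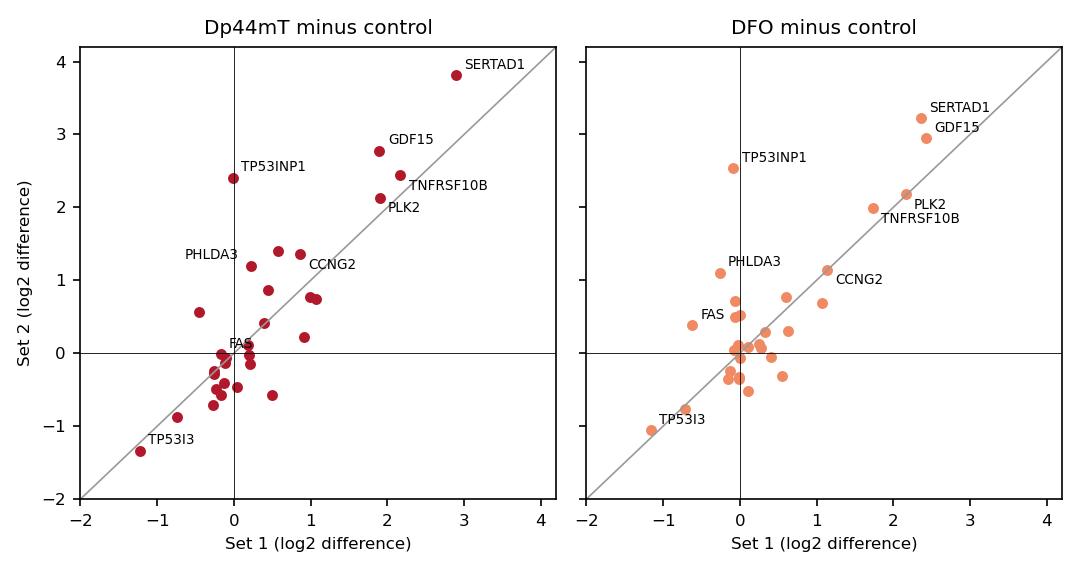
Difference from control within set 1 (x axis) and within set 2 (y axis) on the log2 scale for the 30 members, for Dp44mT and for DFO, with the diagonal drawn. TNFRSF10B, GDF15, PLK2 and SERTAD1 are high in both sets, while TP53INP1 is near 0 in set 1 and above 2 in set 2.

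Across the probe sets of the members, 75 of 89 with a single symbol were above the limit, and 6 were called higher in Dp44mT and 6 in DFO, with 0 called lower. The 6 belong to the same 4 genes. A further 2 probe sets carry the symbols of both LOC254896 and TNFRSF10C and name no gene here.

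**Figure D5:**
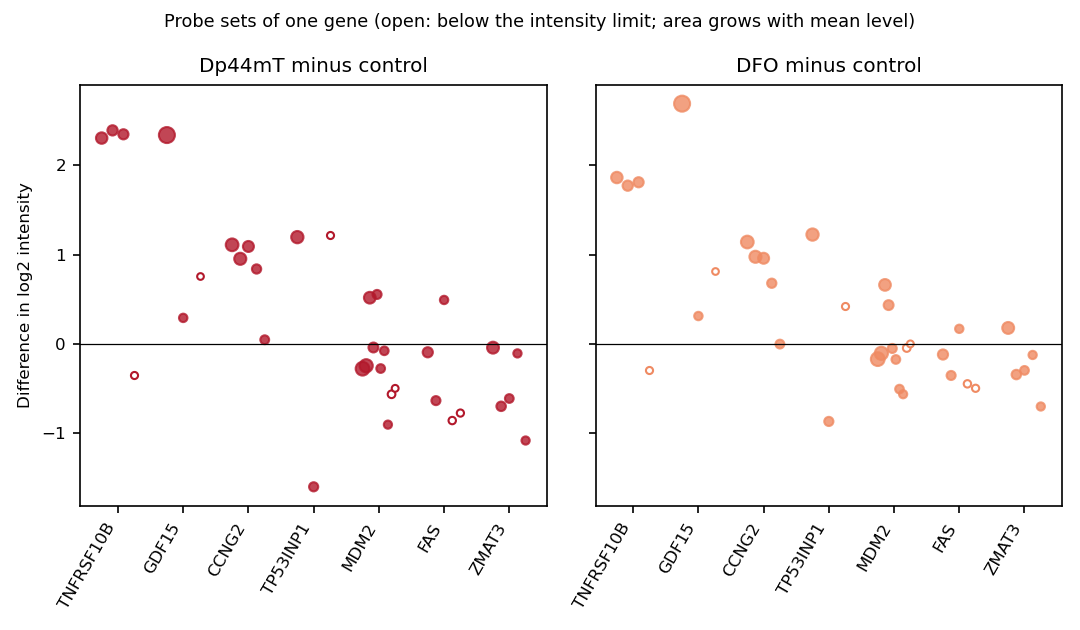
Difference in log2 level from control (y axis) for every probe set of 7 members, with open points below the intensity limit and larger points for brighter probe sets. The 3 bright TNFRSF10B points lie together, GDF15 has 1 high point, and TP53INP1 has points on both sides of 0.

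In the direct comparison of Dp44mT with DFO, 0 of 30 members and 0 of 16868 genes (0%) passed in limma, with 1 member and 718 genes at an unadjusted p under 0.05. The Dp44mT arrays lay above the DFO arrays without overlap for 2 members (14.4% of all genes) and below for 7 (13.1% of all genes). The member with an unadjusted p under 0.05 was TNFRSF10B, at 0.44 (95% interval 0.00 to 0.88, adjusted p = 0.922). The difference was 0.56 for SERTAD1 (−0.27 to 1.39), −0.35 for GDF15 (−1.05 to 0.34) and −0.16 for PLK2 (−0.66 to 0.35). Within sets 1 and 2 the difference was 0.53 and 0.59 for SERTAD1, 0.43 and 0.45 for TNFRSF10B, −0.53 and −0.17 for GDF15, and −0.26 and −0.05 for PLK2, the same sign in both sets for each. The fit and its intervals take no account of the sets. For SERTAD1, GDF15 and PLK2 the intervals hold differences in either direction, which does not show that the chelators act alike.

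Genes around the members were counted from fixed lists. Of 16 stress transcription factors, 9 rose in Dp44mT and 7 in DFO, and 0 fell (medians 1.24 and 0.85). Over all genes tested, 1.91% were called higher in Dp44mT and 1.04% in DFO, and 1.46% and 0.0593% lower. The medians over all genes were 0.03 and −0.03. These shares and medians also stand beside the counts of the lists that follow. FOS, a subunit of AP-1, had levels of 9.28 and 8.77 in Dp44mT, 8.74 and 8.57 in DFO, and 4.56 and 4.001 in control, where it was listed at 0 on replicate 2. Its control levels lay under the intensity limit of 5.55, so FOS passed the filter only through the chelator arrays. ATF3, a factor of the integrated stress response, rose 24.6-fold in Dp44mT and 21.1-fold in DFO. DDIT3 rose 11.8-fold in Dp44mT and 8.56-fold in DFO. ATF4, whose activity is set largely by translation, did not pass at the RNA level (0.53 in Dp44mT, adjusted p = 0.136, and 0.32 in DFO, adjusted p = 0.485).

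Of 19 other p53 targets measured, 4 rose and 1 fell in Dp44mT, and 2 rose and 0 fell in DFO (medians 0.61 and 0.49). SESN2, a stress-induced brake on mTORC1, rose 7.56-fold in Dp44mT and 5.34-fold in DFO, and PMAIP1, which encodes the death promoter NOXA, rose 3.27-fold and 2.82-fold. IER5 rose 3.17-fold in Dp44mT and had 1.27 on the log2 scale in DFO (adjusted p = 0.133). The others called in Dp44mT, named after their values were seen, were GADD45A, which rose 2.80-fold (adjusted p = 0.0251), and SUSD6, which fell (−0.98, adjusted p = 0.0489). CDKN1A, the p21 gene and best known p53 target, had levels of 9.83 and 10.72 in Dp44mT, 9.996 and 10.66 in DFO, and 8.67 and 8.63 in control. Its chelator arrays were all above control, but it did not pass (1.63 in Dp44mT, adjusted p = 0.0874, and 1.68 in DFO, adjusted p = 0.167).

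Among 13 genes of death receptor ligands and signalling above the limit, 1 rose and 0 fell in each chelator (medians −0.12 in Dp44mT and −0.10 in DFO). It was TNFRSF21, which encodes the death receptor DR6, at 4.66-fold in Dp44mT (adjusted p = 0.0118) and 3.32-fold in DFO (adjusted p = 0.0278). Among those that did not pass, and chosen after their values were seen, the receptor TNFRSF1A stood at −2.05 in Dp44mT (adjusted p = 0.0656) and −1.70 in DFO (adjusted p = 0.177), and the adaptor FADD at −1.42 (adjusted p = 0.0798) and −1.25 (adjusted p = 0.198). The chelator arrays of both were below control without overlap. Of the 13 genes, called or not, 3 stood more than 2-fold lower and 2 more than 2-fold higher in each chelator. Of 9 genes of the p53 family and its upstream kinases, HIPK2, a kinase that phosphorylates p53, fell in Dp44mT (−1.23, adjusted p = 0.0488) and stood at −0.55 in DFO (adjusted p = 0.358), and the other 8 did not pass.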

How the data were processed

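Total RNA of 6 DMS-53 samples was hybridized to Affymetrix U133 Plus 2.0 arrays. The authors deposited a linear intensity for each probe set, and the submitters' processing notes name Affymetrix Expression Console 1.1. The summarization method is not given in the sources used here. Array medians differ, so log2(intensity + 16) of the deposited values was quantile normalized over the 6 arrays. Probe sets were named from GEO's platform annotation, which can be old: of 54675, 41097 have 1 gene symbol, 1801 several and 11777 none. A gene was its single-symbol probe set with the highest mean, and genes under the 25th percentile of all probe sets (5.55) were left out, leaving 16868. limma 3.58.1 in R 4.3.3 fitted 3 group means to all 6 arrays (3 residual degrees of freedom), two-sided, with Benjamini-Hochberg adjustment over all genes. The median half-width of the 95% interval was 0.64 on the log2 scale, and the number of arrays limits the precision. A second fit took every probe set above the limit. The code was run on simulated data with independent errors on each array. In the real data, deviations of same-numbered Dp44mT and DFO arrays correlated at 0.84, so that simulation cannot give the error rate here.

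The members, lists, classes and tests were chosen with earlier results of these data known. Values by array are given for each called member, the 5 death and decoy receptors and 4 feedback regulators, and for other members in part. Outside the members, differences are given for up to 3 called genes of a list, largest change first, and for CDKN1A, ATF4 and DDIT3; other genes named were chosen after their values were seen. The exceptions are named as such. Alternatives changed the normalization, pseudocount (1 or 64), dim filter, probe set choice, variance model, groups in the fit, arrays left out and a block for the replicate number. BTG2 and FDXR were not analysed here.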

Additional observations from a re-analysis of the deposited data

How the results depend on the processing

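The 4 members called in each comparison kept their direction under every alternative run. Their number was 4 in Dp44mT and 4 in DFO under both other pseudocounts, both other filters and the intensity trend. Over all genes tested, 569 were called in Dp44mT and 185 in DFO in the main run. With a pseudocount of 1 these were 403 and 156, and with 64 they were 919 and 260. No filter gave 467 and 173, the filter at the median 773 and 256, and the intensity trend 1264 and 400. The number of members was 4 and 3 with array medians subtracted (303 and 98 over all genes) and 3 and 3 with probe sets averaged (487 and 169). It was 1 in Dp44mT and 0 in DFO with no scaling (66 and 26 over all genes). With only the 2 groups compared it was 4 and 0 (403 and 61). Without 1 array, or without replicate 2 of both chelators, a group is left with 1 array and only effect sizes are read. The member calls did not hold there in DFO and held only in part in Dp44mT. Called probe sets of members (6 and 6, of 670 and 241 over all) were 0 and 0 with no scaling (39 and 31 over all). In DFO they were 3 with array medians subtracted (144 over all) and 3 with a pseudocount of 1 (156 over all). The gap between class medians (1.65 in Dp44mT, 1.39 in DFO) was 1.85 in Dp44mT with a pseudocount of 1, 1.23 and 1.15 with 64, 1.11 and 0.99 with probe sets averaged, and 1.61 in DFO without replicate 2 of both chelators. Without 1 array it ran from 1.42 to 1.88 in Dp44mT and from 1.25 to 1.61 in DFO. The cause of these shifts was not tested.

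Deviations from the group means of same-numbered arrays correlated at 0.84 between Dp44mT and DFO, −0.35 between Dp44mT and control and −0.25 between DFO and control, so the numbers did not pair the chelator arrays with control. With the replicate block, 5 members were called in Dp44mT (TP53I3 as lower) and 4 in DFO, of 909 and 169 genes in all, and 0 between Dp44mT and DFO. A crossed replicate block, chosen after seeing the data, gave 6 and 4 members, of 2758 and 511 genes.

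Some uncalled members changed sign. With no scaling, Dp44mT values were −0.63 for MDM4, −0.27 for TNFRSF10D, −0.019 for PLK3, −0.57 for BTG1 and −0.43 for TIGAR, and DFO values were −0.044 for TNFRSF10A, −0.014 for TNFRSF10D, −0.14 for BTG1, −0.22 for XPC, −0.060 for DDB2, −0.19 for TIGAR, −0.32 for PERP and −0.13 for ZMAT3. With array medians subtracted, Dp44mT values were −0.26 for MDM4, −0.20 for BTG1 and −0.062 for TIGAR, and PERP was −0.094 in DFO. With probe sets averaged, TNFRSF10D was −0.028 in Dp44mT and ZMAT3 −0.26 in DFO. Without replicate 2 of both chelators, Dp44mT values were −0.26 for BTG1 and 0.42 for ZMAT3, and DFO values 0.000823 for CCNG1, −0.10 for TNFRSF10A and −0.023 for SPATA18. Without 1 array, Dp44mT ranges were −0.075 to 0.26 for MDM4, −0.063 to 0.13 for TNFRSF10D, −0.26 to 0.38 for BTG1, −0.50 to 0.42 for ZMAT3 and −0.18 to 0.000825 for FAS. DFO ranges were −0.16 to 0.40 for DDB2, −0.38 to 0.042 for MDM2, −0.24 to 0.21 for MDM4, −0.029 to 0.12 for XPC, −0.020 to 0.86 for PHLDA3, −0.63 to 0.40 for FAS, −0.069 to 0.000823 for CCNG1, −0.10 to 0.53 for TNFRSF10A and −0.023 to 0.68 for SPATA18.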

Other observations

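Some other genes, chosen after their values were seen, differed between the replicates as TP53INP1 did. CASP10, an initiator caspase, had levels of 7.02 and 9.41 in Dp44mT, 7.54 and 8.88 in DFO, and 7.33 and 5.22 in control. TP53AIP1, a p53 target of mitochondrial apoptosis, had levels of 6.63 and 9.97 in Dp44mT, 6.99 and 9.24 in DFO, and 7.24 and 5.48 in control. Both were highest on replicate 2 of the chelators and lowest on replicate 2 of control, and neither passed the test.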
